A study of Homo sapiens with 2 samples.

Results

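The genes described here are those whose probes carry the Gene Ontology (GO) term cilium assembly in the probe annotation deposited with the array. Every probe that was not a control, had a gene symbol and listed the term was taken, which gave 172 probes of 107 genes, out of 17770 genes with a symbol and any GO term. The rule uses no measured value, but the term was chosen with earlier results of these data known. A figure of the study also draws cilium assembly among the leading terms of its genes lower on these arrays, so a lower level of these genes here is not independent evidence of its direction.

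RNA came from A375 cells, an established line grown from a human melanoma. One culture had been transfected with an siRNA against THOC2, a subunit of the THO/TREX complex that couples transcription to the export of mRNA from the nucleus, and another with NC, a control siRNA. Such oligos direct the cell's own machinery to cut mRNAs that match them. The cells were harvested after 48 h, and total RNA of each condition was hybridized to 1 Agilent SurePrint G3 Human Gene Expression v3 array (1 colour, Cy3). Each condition had 1 array, so nothing is known of how cultures vary, no test was possible, and every difference is between these 2 arrays. A375 is a single tumour line grown in serum, and all cells on both arrays share that background. The label of the siRNA array carries an oligo number, which the sources used here do not tie to one of the listed THOC2 oligos. Each sample's title and description disagree with its source field on the condition. Groups here follow the title and description, and a probe of THOC2 gave 136 with NC and 40.9 with the THOC2 siRNA (log2 difference -1.42). The other THOC2 probe gave 67.3 and 35.1 (-0.63).

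Each array held 62976 spots, and the scanner software called 24616 (NC) and 22936 (THOC2 siRNA) probes well above background. Signals in the text are processed signals, that is, intensities after background subtraction, and are not scaled between the arrays. A log2 difference is the THOC2 siRNA value minus the NC value after each array's 75th percentile (6.62 and 6.31 on the log2 scale) had been subtracted, so equal raw signals give a difference above 0. Of 8 markers of the melanocyte lineage, 5 were measured: SOX10 (6196 and 5196, log2 difference 0.06), MITF (-0.03), DCT (0.75), S100B (-0.66) and MLANA. The pigment genes TYR, TYRP1 and PMEL were not well above background on either array. Summed signals of 4 keratinocyte markers were 32401 and 20754, of 4 fibroblast markers 252 and 276 and of 4 blood cell markers 52.6 and 66.3. Of the last 3 lists 2 markers each were measured, and KRT10 (32306 and 20623) made up nearly all of the keratinocyte sum. The blood cell markers CD3E and PTPRC, with NC signals of 25.3 and 27.4, lay at 0.87 and 0.39. KRT14, partly through a probe detected with the siRNA only, and the fibroblast marker DCN had log2 differences of 1.06 and 1.56, KRT10 and PDGFRB of the same lists lay at -0.34 and -0.10, MLANA was detected with the siRNA only, HBB, COL1A1 and COL1A2 were below background, and the part of these markers in the results was not tested. In bulk RNA, fewer cells that express a gene and less RNA per cell cannot be told apart.

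The cilium is a microtubule-based projection that grows from a basal body, a modified centriole docked at the cell membrane. Its parts are carried along the microtubules by intraflagellar transport (IFT): the IFT-B complex moves with kinesin-2 towards the tip, and the IFT-A complex moves with dynein-2 back to the base. The BBSome is a coat-like complex that moves membrane proteins in and out of the cilium, and the transition zone is the gate at its base. Most resting cells can form a primary cilium, which concentrates Hedgehog signalling and is taken apart before cell division. RFX transcription factors activate many ciliary genes through a promoter element, the X-box.

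The promoters of the members are shown first, because the X-box is a feature of sequence that the choice of genes did not use. RefSeq promoter sequences (GRCh38.p14, from 250 bases before to 50 after the start of each gene) were available for 96 of the 107 members. The X-box was searched on both strands as GTTNCC, any 2 bases and GGNAAC, where N is any base. It was found in 8 members (8.33%) and in 162 of 27305 genes in the table (0.593%). Its left arm GTTGCC alone, searched on both strands and contained in some of the X-boxes, was found in 42 members (43.8%) and in 3983 of all genes (14.6%). The 8 members were ARL6, CCNO, RAB3IP, RFX4, SPAG16, TMEM107, TMEM17 and TTC30A. In 6 of them the element lay wholly before the start, and those stretches are given below with the X-box in capitals.
ARL6, chr3:97764722-97764757, plus strand: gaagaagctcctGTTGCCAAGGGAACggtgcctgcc
CCNO, chr5:55233820-55233857, minus strand: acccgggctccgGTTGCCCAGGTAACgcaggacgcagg
RAB3IP, chr12:69738637-69738674, plus strand: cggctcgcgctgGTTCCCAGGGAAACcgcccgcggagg
SPAG16, chr2:213284268-213284305, plus strand: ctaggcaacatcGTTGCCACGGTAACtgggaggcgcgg
TMEM107, chr17:8176400-8176437, minus strand: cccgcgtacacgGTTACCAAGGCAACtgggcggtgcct
TMEM17, chr2:62506196-62506222, minus strand: tcgcgccgcccgGTTGCCGTGGGAACc

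The distance from the element to the start ranged from 1 base in TMEM17 to 223 bases in CCNO. Among the measured members with a promoter, the median log2 difference was -0.25 for the 7 with an X-box and -0.11 for those without one. The 7 values ran from -0.32 for ARL6 to 0.17 for CCNO, a cyclin needed for centriole amplification in multiciliated cells. For the 39 measured members with the left arm the median was -0.11, against -0.13 without it. A match is a description of the letters in this window and no binding was measured.

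The members' probes are 60 bases long. The first 30 bases are given for the 5 genes whose mean passed 2-fold, with the coordinates of the whole probe on hg19, so that a reader can place what was measured. Exon and UTR positions of the probes were not analysed here.
IFT80, chr3:159975027-159975086, minus strand: acacacacaaagggatagagagattacctc
TTC30B, chr2:178415572-178415631, minus strand: cttcatggcagaaacatacctgctgttatt
IFT74, chr9:27056396-27056455, plus strand: agcaaaacatagagtatgaggcactaaaaa
RFX3, chr9:3344732-3344791, minus strand: cacttcgacctttatgctctcagggaaaat
RFX3, chr9:3257132-3257191, minus strand: ttcctgggtgtgccagtgtgatgacaacat
FUZ, chr19:50310304-50310363, minus strand: tctctctgtttattcgctcacaataataca

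Genes for cilium assembly were mostly slightly lower on the THOC2 siRNA array. A gene's value was the mean over those of its probes that 1 array or both detected well above background, and 91 of the 107 members had one. Of these, 66 lay below 0 (72.5%), against 45.3% of all 12525 genes with a GO term that were compared, and the median was -0.14 against 0.03. At least 2-fold lower were 4 members, RFX3, IFT80, TTC30B and IFT74 (4.4%), beside 2.04% of all genes. At least 2-fold higher was 1 member, FUZ (1.1%), beside 1.68% of all genes. Over probes well above background on both arrays, 86 members were compared, of which 60 lay below 0 (69.8%, against 42.9% of 11775 genes) with a median of -0.08 against 0.04. There, 2 members, IFT80 and TTC30B, were at least 2-fold lower (2.33%, beside 0.331% of all genes), and FUZ was at least 2-fold higher (1.16%, beside 0.577%). After lowess centring, which removes a trend with signal, the shares of all genes turned to 1.34% lower and 1.92% higher, and 3 members were at least 2-fold lower and 2 higher.

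The members fell on different sides of the detection limit. Of the 172 probes, both arrays detected 107 well above background, the NC array alone 15, the THOC2 siRNA array alone 1 and neither array 49. The share seen on the NC array only was 8.72%, against 3.93% of all probes of genes with a GO term. By gene, 86 were measured on both arrays, and IFT74, TTC26, TTC30A and CCDC113 only on the NC array, INTU only on the siRNA array. Counted by gene, the share seen on the NC array only was close to that of all genes with a GO term (3.74% against 3.26%), and the share seen on neither array was 15.0% against 29.5%. The 16 members that neither array detected were CEP162, DNAI2, FOXJ1, HYDIN, IFT57, KIAA1377, KIF27, NME5, ONECUT1, ONECUT2, PKHD1, RFX4, RPGRIP1L, TCTN2, TMEM67 and TTLL8. Among these are FOXJ1, the regulator of motile cilia, and parts of the motile axoneme such as DNAI2, a dynein chain, and HYDIN, a component of the central pair.

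**Figure D1:**
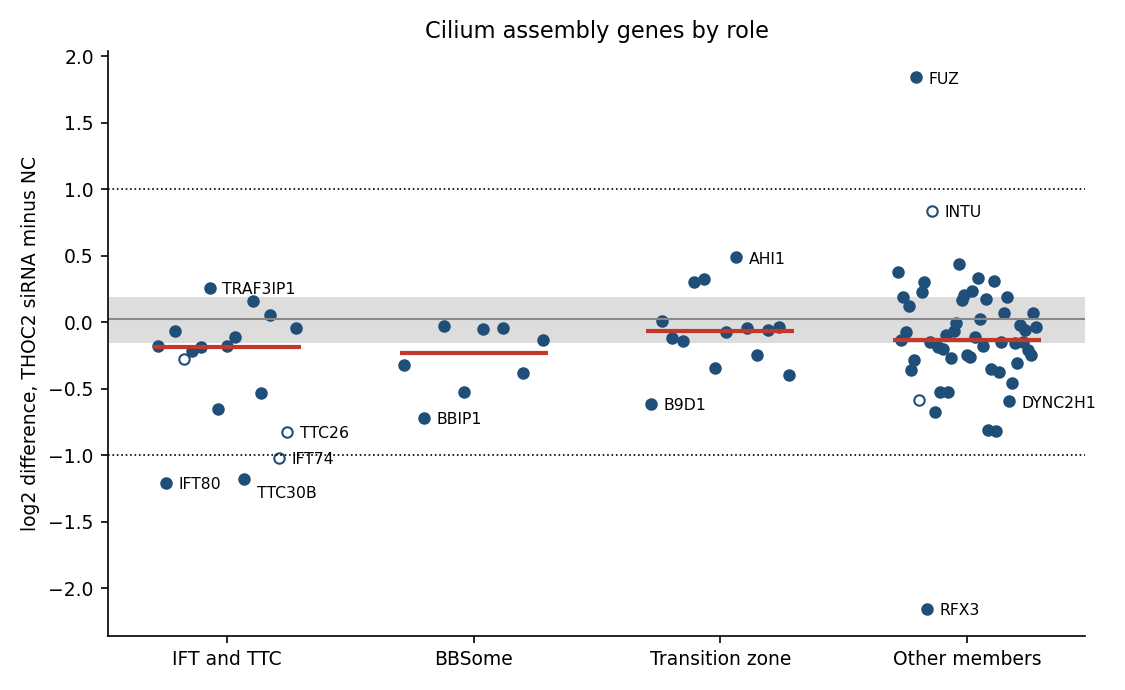
Log2 difference (THOC2 siRNA minus NC, vertical axis) of each measured cilium assembly gene, in groups by role. Filled points have a probe well above background on both arrays and open points on 1 array only, red bars are group medians, the grey line and band are the median and middle 50% of all genes with a GO term, dotted lines mark 2-fold, and TTC8 is drawn in both of its groups. The 8 BBSome points all lie below 0, from -0.72 to -0.03, while the transition zone points run from -0.61 to 0.49.

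In the plot of the members by role, the transport and BBSome genes have lower medians than the transition zone genes, a difference that was not tested. Of 18 IFT and TTC members, 17 were measured, with a median of -0.19. Below 0 lay 14 of them (82.4%, against 45.3% of all genes with a GO term). At least 2-fold lower were 3 (17.6%, beside 2.04% of all genes), of which IFT74 was detected on the NC array only. Over probes on both arrays, 14 genes had a median of -0.18, with 11 below 0 (78.6%, against 42.9%). There, 2 were at least 2-fold lower (14.3%, beside 0.331%). The IFT-B members gave 11 of 12 values below 0, with a median of -0.25. The IFT-A members gave 2 of 4 below 0, with a median of -0.03. Over probes on both arrays, which leaves out IFT74, TTC26 and TTC30A, the IFT-B members gave 8 of 9 below 0 with a median of -0.19, and the IFT-A median was -0.07. The difference between IFT-B and IFT-A was not tested.

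IFT80, an IFT-B subunit mutated in skeletal ciliopathies, had 1 probe. Its signal was 71.1 (NC) and 24.9 (THOC2 siRNA), a log2 difference of -1.21, with a technical SD of 0.18. That SD is for the difference between single spots of repeated probes of like signal, and it leaves out all variation between cultures. Around its spot, in 1 of 128 blocks into which the array was divided, 2.42% of the compared probes were at least 2-fold lower and 9.18% at least 2-fold higher.

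TTC30B, an IFT-B subunit rich in tetratricopeptide repeats, gave 56.1 and 20.0, a log2 difference of -1.18 with a technical SD of 0.22. In its block 8.20% of probes were at least 2-fold lower and 1.64% higher. Its near-identical paralog TTC30A gave 22.5 and 15.0, the latter not well above background, at least 1.15-fold lower. Transcripts of these paralogs may bind both probes, so the values of each are uncertain.

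IFT74, whose protein pairs with that of IFT81 to bind tubulin, gave 35.0 with NC and 14.0 with the THOC2 siRNA, where it was not well above background. The measured log2 difference was -1.02, just past 2-fold, but the detection limit supports only a difference of at least 1.78-fold. A second IFT74 probe was below background on both arrays. TTC26, another IFT-B subunit, lay just inside 2-fold with 33.9 and 15.5 (-0.82) and was at least 1.73-fold lower. IFT81 gave 82.7 and 43.6 at one probe (-0.61, technical SD 0.14). At its other probe it gave 23.1 and 11.5, the latter not well above background, at least 1.17-fold lower.

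The other IFT-B members differed less. IFT172 gave 747 and 518 (-0.22), IFT20, which also works at the Golgi, 664 and 471 (-0.19), and IFT46 911 and 649 (-0.18). HSPB11, a small subunit, gave 2672 and 2064 (-0.06). CLUAP1 had 3 probes, which gave -0.52, -0.02 and 0.00. TRAF3IP1, which binds microtubules, was the IFT-B member above 0, with 171 and 166 (0.26, technical SD 0.10). IFT57 was below background.

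Of the IFT-A members, WDR35 gave 86.2 and 48.2 (-0.53, technical SD 0.14), the lowest of the 4. WDR19 gave 123 and 86.2 at the probe seen on both arrays (-0.20), and its second probe was not well above background on the siRNA array, so that the gene mean was -0.11. IFT140 gave 169 and 142 (0.05), and IFT122 gave 139 and 125 (0.16). The values of IFT140 and IFT122 lay within about 2 technical SDs of 0 (0.10 each).

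**Figure D2:**
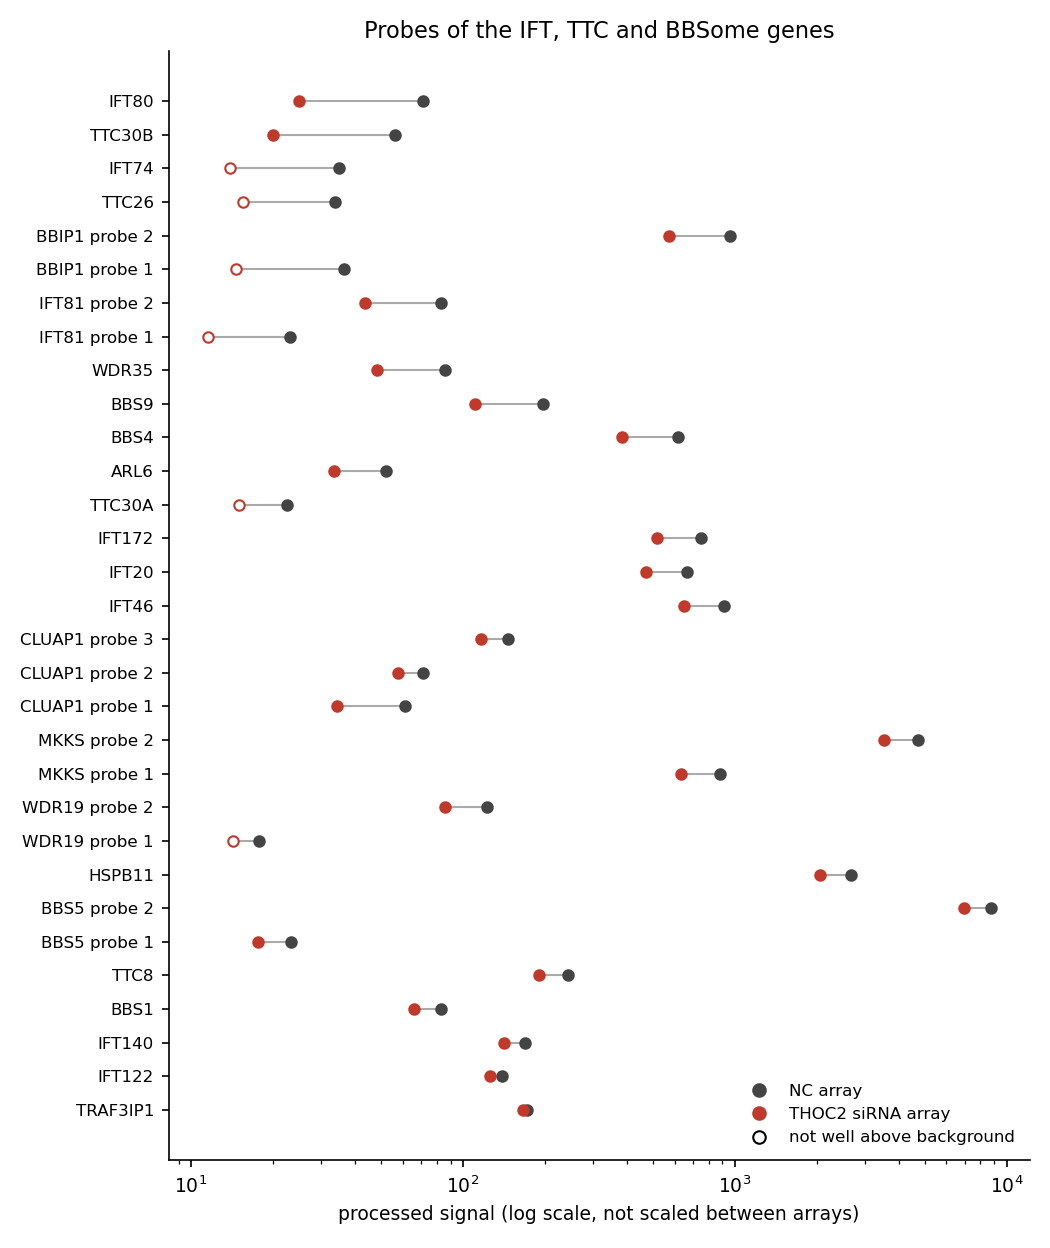
Processed signal (horizontal axis, log scale, not scaled between arrays) of each IFT, TTC and BBSome probe on the NC array (grey) and the THOC2 siRNA array (red), with open points not well above background. IFT80 and TTC30B have the widest gaps among probes seen on both arrays, whereas TRAF3IP1 has nearly equal signals.

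The BBSome group holds subunits of the complex and the associated genes ARL6 and MKKS. All 8 were measured on both arrays and all lay below 0, with a median of -0.23, and none reached 2-fold. BBS9, a core subunit, gave 197 and 111 (-0.52, technical SD 0.11). BBS4, a subunit that binds the satellite protein PCM1, gave 618 and 384 (-0.38, 0.07). ARL6, the GTPase that recruits the BBSome to membranes, gave 51.9 and 33.5 (-0.32, 0.18). These 3 were further from 0 than their technical SD.

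BBIP1, the smallest subunit, gave 960 and 573 at its brighter probe (-0.43, 0.06). Its other probe gave 36.4 and 14.7, the latter not well above background, at least 1.85-fold lower, and the gene mean was -0.72. The other 4 members lay closer to 0. MKKS, a chaperonin-like protein for BBSome assembly, gave -0.16 and -0.11 at its 2 probes. BBS5 gave -0.01 and -0.09, TTC8, which is also a tetratricopeptide protein, -0.04, and BBS1 -0.03. The value of BBS1 (83.2 and 66.0) was smaller than its technical SD of 0.14.

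Transition zone genes lay on both sides of 0. Of 17 members, 14 were measured, 10 lay below 0 and 4 above, with a median of -0.07. The share below 0 was 71.4%, close to that of all members (72.5%) and above that of all genes with a GO term (45.3%). B9D1, a B9-domain protein of the gate, was the lowest, with 663 and 369 at one probe (-0.54, technical SD 0.08) and 1136 and 567 at another (-0.69, 0.06). Its partner B9D2 gave 632 and 387 (-0.40, 0.08). CEP290, which links the microtubules to the membrane, gave 53.6 and 34.0 (-0.34, 0.18).

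Above 0 were TMEM216, TMEM231, AHI1 and RPGR (0.01), while TMEM17 (-0.25), TMEM107 (-0.11), TMEM237 (-0.07) and TMEM138 (-0.06) lay below it. TMEM216 gave 874 and 869 (0.30, technical SD 0.06), and TMEM231 gave 67.0 and 67.7 (0.33, 0.14). AHI1, mutated in Joubert syndrome, gave 15.8 and 17.8 (0.49, 0.34), signals close to the lowest well above background on each array (14.7 and 15.9). MKS1 lay at -0.04 and IQCB1 at -0.03. RPGRIP1L, TCTN2 and TMEM67 were below background.

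The remaining 65 members include motors, basal body proteins, vesicle GTPases and transcription factors. Of these, 53 were measured, 35 lay below 0 and the median was -0.13. All 3 motor genes lay below 0. DYNC2H1, the heavy chain of dynein-2, gave 109 and 58.2 (-0.59, technical SD 0.14), in a block in which 13.0% of probes were at least 2-fold lower. DYNC2LI1, its light intermediate chain, gave 25.9 and 16.9 (-0.31, 0.22), and KIF3A, a kinesin-2 motor, 173 and 126 (-0.15, 0.11).

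Among 10 basal body and appendage members, 9 were measured and 7 lay below 0, with a median of -0.15. TTBK2, the kinase that starts cilium outgrowth, gave 142 and 79.4 (-0.53, technical SD 0.14). FBF1, a protein of the distal appendages, gave 42.9 and 46.9 (0.44, 0.18), and CEP164, another, gave 526 and 500 (0.24, 0.07). SSX2IP, which works at centriolar satellites, had a gene mean of -0.81 that rested on a probe with 16.1 and 3.29, the latter not well above background and with no fold that the detection limit supports. Its other probe gave 44.3 and 46.0 (0.36), so the direction of SSX2IP depended on the probe. Of 5 vesicle GTPase members, 4 lay below 0, with a median of -0.21, and RAB8A, which brings vesicles to the ciliary base, lay above 0 at 0.07.

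RFX3, a transcription factor that drives ciliary genes, had a gene mean of -2.16 that rested on a dim signal, and its probes disagreed. With dim signals at their limit the mean was -0.997, short of 2-fold and above those of IFT80 and TTC30B. The probe at chr9:3344732-3344791 gave 74.1 on the NC array and a dim 3.18 on the siRNA array, at least 3.77-fold lower. The probe at chr9:3257132-3257191, seen on both arrays, gave 57.3 and 43.8 (-0.08, technical SD 0.15), and the other 2 RFX3 probes were below background. Which transcripts each probe detects was not analysed here. MCIDAS, a regulator of multiciliated cells, gave 28.5 and 16.8 (-0.45, 0.22), while FOXJ1 and RFX4 were below background. Outside the term, RFX1, RFX2 and RFX5 lay at -0.09, -0.02 and -0.10.

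FUZ, a planar cell polarity effector, was the member furthest above 0. Its probe gave 310 with NC and 897 with the THOC2 siRNA, a log2 difference of 1.84 (3.59-fold) with a technical SD of 0.07. In its block 13.3% of compared probes were at least 2-fold higher and 2.96% lower. FUZ acts with INTU, WDPCP and the small GTPase RSG1 at the basal body, a group looked at after the value of FUZ was seen. INTU gave 13.6, not well above background, and 19.6, at least 1.66-fold higher. WDPCP gave -0.14, 0.70 and 0.38 at 3 probes. RSG1 gave 0.04 at the probe seen on both arrays. Its other probe gave 26.2 and 16.7, the latter not well above background, at least 1.27-fold lower, and the gene mean was -0.15. The members of the group therefore did not all follow FUZ.

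At 1.5-fold, 12 members were lower (13.2%, against 5.32% of all genes) and 2 higher (2.2%, against 3.97%). Over probes seen on both arrays, a count added after the data were seen, 5 were lower, IFT80, TTC30B, IFT81, B9D1 and DYNC2H1 (5.81%, against 2.36%), and FUZ was higher (1.16%, against 2.58%). Beside those described, FAM161A (-0.82) rested on a probe with 15.3 and 4.19, the latter not well above background, while its other probe gave -0.07. SNX10 (-0.67), a sorting nexin, gave -0.37 at the probe seen on both arrays. ICK, a kinase at the ciliary tip, gave 36.9 and 38.8 (0.38, technical SD 0.18). The 38 members in none of the 12 cilium lists, among them the actin crosslinker FLNA (0.33) and the laminin LAMA5 (0.19), had 17 of 32 measured values below 0 and a median of -0.02.

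**Figure D3:**
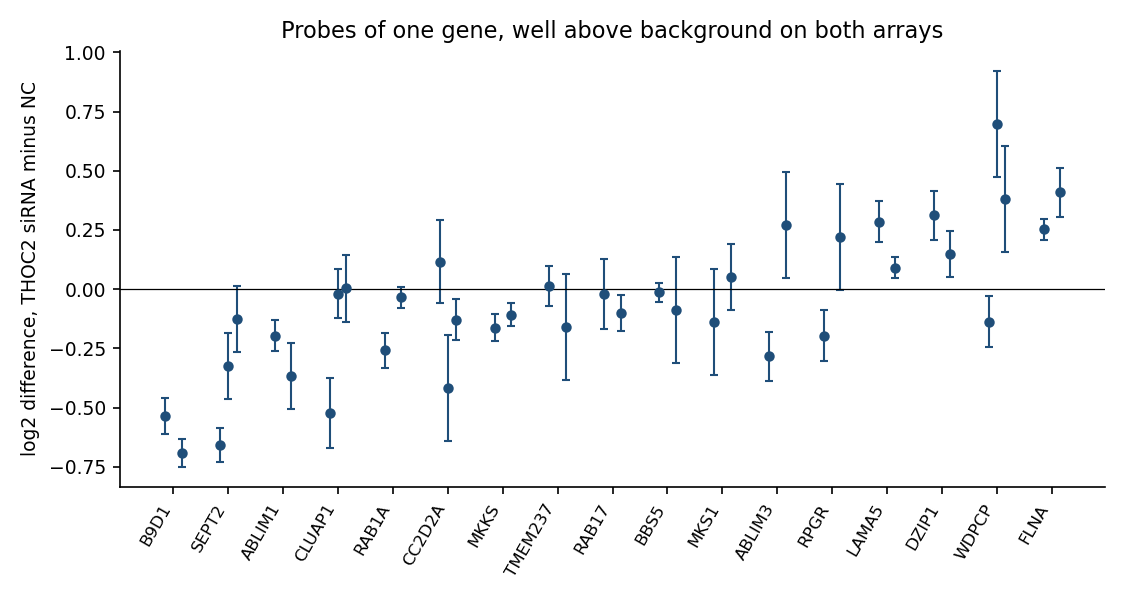
Log2 difference (THOC2 siRNA minus NC, vertical axis) of each probe of the 17 members with more than 1 probe well above background on both arrays. Bars are 1 technical SD on either side. Both B9D1 probes lie below -0.5, whereas the 3 WDPCP probes run from -0.14 to 0.70.

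As the plot of probes by gene shows, probes of one gene differed by a median of 0.19 over 17 members. In 7 of these genes the probes differed in sign. The gap was 0.5 or more in 5 genes, WDPCP (0.84), ABLIM3 (0.55), CC2D2A, SEPT2 and CLUAP1 (0.53 each). ABLIM3, an actin-binding protein, gave -0.28 and 0.27. CC2D2A, of the transition zone, gave 0.12, -0.42 and -0.13. Gaps of this size are as large as most of the gene values given above, and a gene with 1 probe has no second measurement to set beside it.

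From 12 lists of transport, BBSome, gate, basal body, vesicle, membrane, disassembly, transcription and axoneme genes, 93 genes lacked the term, 90 of them were on the array and 71 were measured. Of these 43 lay below 0 and the median was -0.04, where 45.3% of all genes with a GO term lay below 0 with a median of 0.03. At least 2-fold lower were 3 genes, among them CEP120 (-1.46) and TTC23 (-1.14), beside 2.04% of all genes. Both of these rested on a probe not well above background on the siRNA array, at least 1.44-fold and 1.02-fold lower. At a brighter probe seen on both arrays, CEP120 gave 92.4 and 69.6 (-0.10) and TTC23 gave 121 and 99.9 (0.03). Over probes seen on both arrays, 67 genes were compared, none reached 2-fold in either direction and the median was -0.01. There 0.331% of all genes were at least 2-fold lower and 0.577% higher, shares at which few or none of 67 genes would be called. By list, some medians outside the term lay further below 0 than those of the members, and others did not. For IFT-B this order depended on the probes used. The 4 IFT-B genes outside the term all lay below 0 (median -0.28), as did 6 of 8 measured basal body genes (-0.21), 5 of 8 transition zone genes (-0.13), 3 of 5 axonemal genes (-0.28) and 4 of 5 BBSome genes (-0.07). Over probes seen on both arrays, the medians were -0.06 (3 IFT-B genes), -0.10 (7 basal body genes) and -0.11 (7 transition zone genes). The axonemal median stayed at -0.28, and that of 4 BBSome genes was -0.26. There the IFT-B median outside the term was closer to 0 than that of the IFT-B members (-0.19). Of 8 measured genes for cilium disassembly, 3 lay below 0 (median 0.08), as did 2 of 9 ciliary membrane genes (0.10). The 2 IFT-A genes outside the term lay above 0 (median 0.04). Below 0 lay 5 of 6 motor genes (-0.12), 5 of 8 vesicle genes (-0.09) and all 3 measured transcription factors (-0.09). Of the other TTC genes 3 of 5 lay below 0 (-0.01, or 0.03 over probes on both arrays).

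The deposited annotation also shows what else the members share. Centrosome was listed for 48 members (44.9%, against 2.16% of all genes with a GO term) and the ciliary basal body for 37 (34.6%, against 0.45%). The IFT particle B term was listed for 13 members of the 18 genes that carry it, and smoothened signalling, the Hedgehog pathway, for 18 members of 66. The MKS complex of the gate was listed for 11 members of 13. In this annotation the members therefore hold most genes of the IFT-B and gate complexes, and less of the Hedgehog pathway.

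**Figure D4:**
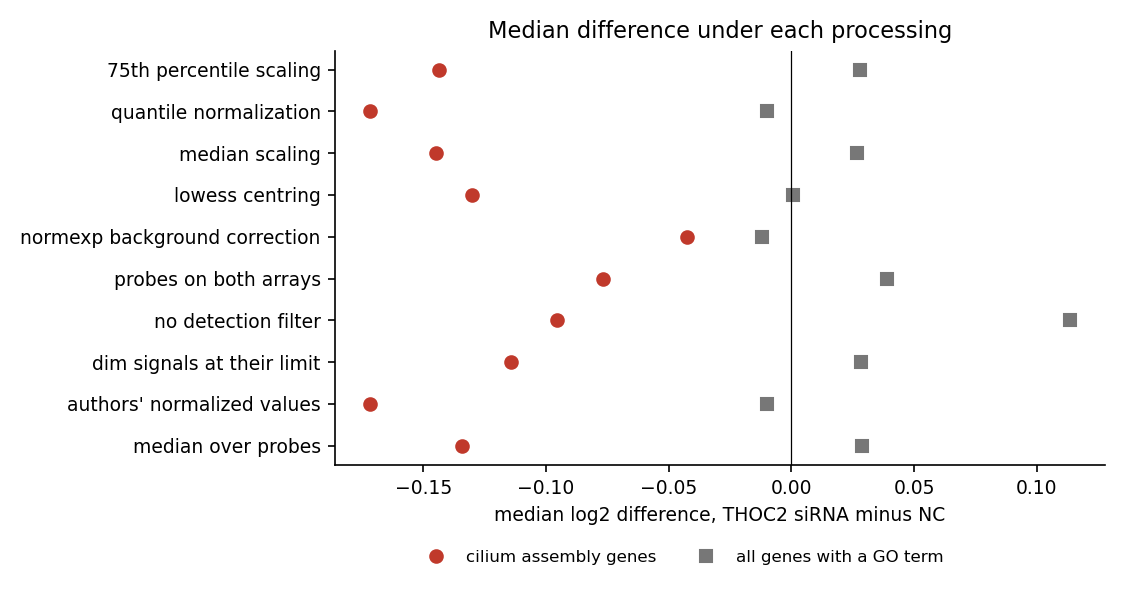
Median log2 difference (THOC2 siRNA minus NC, horizontal axis) of the cilium assembly genes (red circles) and of all genes with a GO term (grey squares) under 10 ways of processing the arrays. The members' median stays left of that of all genes in each, from -0.17 to -0.04, and the gap is smallest after normexp background correction. Some of these ways are nearly equivalent.

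The number of members past 2-fold varied with the processing. In the plot of medians by processing, the members' median lay below that of all genes under each of the 10 settings. These are not 10 independent checks. Scaling on the median shifts all genes alike and cannot change this order, and the authors' values are themselves quantile-normalized. After normexp background correction, which adds an offset and so shrinks differences of dim probes, 63.7% of members lay below 0, against 53.2% of all genes. There no member was at least 2-fold lower (0.0719% of all genes), with IFT80 at -0.39, TTC30B at -0.37, RFX3 at -0.51 and IFT74 at -0.19. All 8 BBSome members lay below 0 in 9 of the settings, and 7 of 8 did with no detection filter. FUZ ranged from 1.61 to 1.84.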

How the data were processed

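The authors extracted spot intensities with Agilent Feature Extraction 10.7.1.1. The deposited files hold, for each spot, a processed signal intensity and flags for outliers and for signals well above background. The authors also deposited quantile-normalized log2 values with probe annotation, used for the GO terms and as an alternative. A deposited table of the authors' own fold changes was not used.

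Control spots and outlier spots (147 and 168) were dropped and repeated spots averaged, leaving 58199 probes, none saturated. The log2 signal minus each array's 75th percentile was compared for the 25345 probes that 1 array or both detected well above background, and gene values are means over probes. For a probe detected on 1 array, the fold is a bound, set against the dim array's detection limit (its lowest signal called well above background) or the dim signal itself, whichever was higher. Technical SDs are medians over the 15 nearest of 300 repeated probes. The 2-fold threshold is that of the methods, whose Student's test needs replicates. The number of arrays limits the precision.

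Genes to be named were THOC2, members past 2-fold, the 5 lowest and 5 highest on both arrays, all BBSome and IFT-A members, the 3 lowest and 3 highest other members of each role, the 3 widest probe gaps, and listed genes outside the term past 2-fold. Other members were named after their values were seen, to complete a group. The members and lists were chosen with earlier results of these data known. Of 162 listed genes 3 were not on the array, and some genes are not reported here.

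Alternatives were quantile normalization, scaling on the median, lowess centring (span 0.3), normexp (offset 50), no detection filter, probes on both arrays only, the authors' normalized values, dim signals set to their limit, the median over probes and 1.5-fold. A count at 1.5-fold over probes on both arrays was added after seeing the data. On simulated data for THOC2 siRNA against NC, 200 of 200 changed probes were recovered, with 14 false calls among 24616 probes. The size set for the changed probes was 1.5 on the log2 scale. All of them were brighter on the NC array than the probes of TTC30B and IFT74. The simulated noise was that between repeated spots and left out variation between cultures. Recovery of smaller differences, such as those of IFT80, TTC30B and IFT74, or of dimmer probes was not tested. Python 3.11.15, numpy 2.4.6, pandas 2.3.3, statsmodels 0.14.6, matplotlib 3.10.9, R 4.3.3 and limma 3.58.1 were used. Probe positions are those of the deposited annotation (hg19), and promoters are RefSeq's (GRCh38.p14).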

Additional observations from a re-analysis of the deposited data

How the results depend on the processing

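No paired analysis was possible because there was 1 array per condition, and for the same reason no array could be left out. The 4 cilium assembly genes at least 2-fold lower became 0 after normexp background correction, 2 over probes on both arrays, 2 with dim signals at their limit and 12 at 1.5-fold. With lowess centring they were 3, since IFT74 moved to -0.94. The 1 gene at least 2-fold higher became 2 with lowess centring (FUZ and INTU, 1.07), 2 with no detection filter (FUZ and KIF27, which was below background on both arrays) and 2 at 1.5-fold. Among all genes with a GO term, the shares lower and higher were 1.34% and 1.92% with lowess centring, 2.00% and 3.13% with no detection filter, 0.479% and 1.13% with dim signals at their limit, and 0.0719% and 0.184% after normexp, against 2.04% and 1.68% under the 75th percentile scaling. Of the other values of the groups, 51 stayed within the spread allowed and kept their direction. The median of the members ranged from -0.17 to -0.04, of the IFT and TTC genes from -0.23 to -0.10, of the BBSome genes from -0.26 to -0.17 and of the transition zone genes from -0.10 to -0.05. Of the values of single genes, 41 moved by more than their technical SD and 264 did not. Part of the 264 could not move. For a gene with 1 probe seen on both arrays, such as IFT80, TTC30B or FUZ, settings that select or average probes return the same value. The authors' values also nearly repeat quantile normalization in both tallies, so these counts are no measure of stability. Values of ABLIM3, AHI1, HSPB11, IFT140, MKKS, SSX2IP and WDR19 crossed 0 under some setting, and IFT74 ranged from -1.04 to -0.02. The cause of these moves was not tested. Signals near background limit what the arrays can show for IFT74, TTC26, TTC30A, INTU, AHI1 and the dim RFX3 probe.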
